A study of Homo sapiens with 11 samples.

Results

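The genes described here are 37 genes of the actin cytoskeleton and of cell adhesion, a fixed list of symbols, followed across every treatment of an array study of T47D cells. Of these, 36 had at least 1 probe set annotated to that symbol alone, out of 19775 genes named in this way on the array, and FLNA, which encodes the filament cross-linker filamin A, had none. The 36 genes carried 117 probe sets. Of these, 3 were control probe sets for ACTB, which were described and not tested, and 114 were tested. A further 9 probe sets shared by ACTB and ACTG1 were left out. By role, 8 genes encode actin and filament proteins (25 probe sets), 10 act in filament assembly and turnover (32), 7 are signalling GTPases and kinases (25), 8 belong to focal adhesions and integrins (23), and 3 belong to the cell cortex and cell-cell junctions (9).

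Actin filaments are assembled from monomers by formins and by the Arp2/3 complex, and are taken apart by cofilin. Signalling kinases such as LIMK act on this balance, and integrins tie the filaments to the matrix through talin, vinculin and paxillin. In breast epithelial cells E-cadherin joins neighbouring cells, ezrin and moesin link the membrane to the cortex, and steroid action at the cell membrane is often read out on actin.

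T47D is an established human breast cancer line that responds to estradiol. The 11 arrays formed 9 groups, with 2 arrays each of untreated control and of E2-BSA, in which estradiol is linked to the carrier protein bovine serum albumin (BSA). There was 1 array each of E2-BSA together with G15, E2-BSA together with ICI, G15, ICI, BSA, ethanol and free estradiol. Before treatment all cells spent 4 h in medium whose serum, at 10%, had been stripped with charcoal, and treatment lasted 3 h in such medium. Estradiol, E2-BSA and BSA were given at 1 µM, ICI and G15, which the labels call antagonists, at 10 µM, and ethanol, the vehicle, at 0.1%. G15 is known to block GPER1, a membrane estrogen receptor coupled to G proteins, and the labels give ICI by that abbreviation alone.

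The deposited values were log ratios centred for each probe set, so they give differences between arrays and not levels, and neither the level of a gene nor the presence of epithelial markers could be read from them. The arrays also split into 2 sets in a way that cut across treatment. One, here the smaller set, held control 1, E2-BSA 1 and estradiol, and the larger set held the remaining 8 arrays. These sets were defined from the values themselves, by the sign of the first principal component over all probe sets, with 71.0% of the variance. Each comparison was therefore fitted with the array set as a term. For some probe sets, differences between arrays of the same set are given beside the fit. Elsewhere the fit alone is given, and it can differ from them. The labels do not state whether replicate arrays stem from separate cultures, so the p-values measure at most a spread between arrays, which may be technical. In most fits, with 1 residual and 11.3 prior degrees of freedom, that spread is mainly pooled over all probe sets. It reflects a probe set's own arrays only in small part. Groups with 1 array were assumed to vary like the replicated groups, and with so few arrays every value has limited precision. All values and differences below are on the log2 scale, with the standard error of the limma fit after ±, and adjusted p-values follow Benjamini and Hochberg over the 54613 tested probe sets.

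In E2-BSA against untreated control, FMN1, which encodes formin 1, a protein that nucleates and elongates unbranched actin filaments, was the gene of the list that rose. Its probe set 238621_at rose by 1.20 ± 0.17 (limma adjusted p = 0.00592), a 2.29-fold change. It was 1 of 114 probe sets called higher, with 0 called lower, beside 0.657% of all probe sets tested. At an unadjusted p under 0.05 there were 8 of the 114, or 7.02%, against 9.68% of all probe sets. The remaining 111 probe sets, of 35 genes, lay between -0.47 and 0.39.

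The median over the 114 probe sets was 0.017, beside 0.0029 over all probe sets, and the median absolute difference was 0.0853 against 0.0974. Of the 114, 59 had the same sign in both array sets, beside 54.4% of all probe sets. A difference of 0.5 or more in both sets was reached upward by 1 (0.374% of all probe sets) and downward by 0 (0.306% of all). These shares and medians lie close to those of the whole array.

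**Figure D1:**
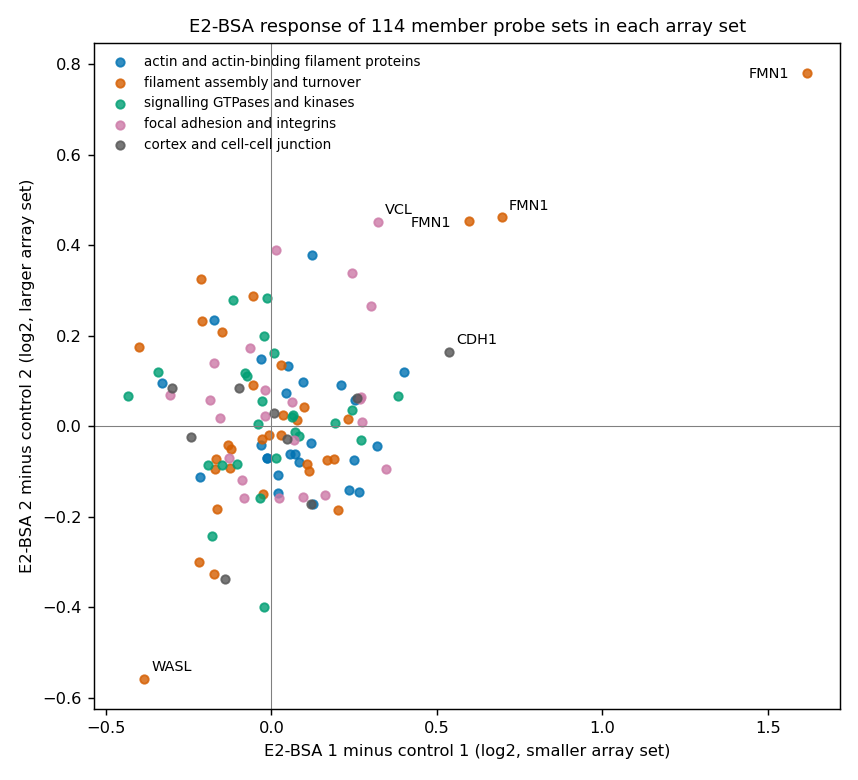
Each point is 1 of the 114 probe sets, with the log2 difference E2-BSA 1 minus control 1 on the horizontal axis and E2-BSA 2 minus control 2 on the vertical axis, coloured by role. FMN1 238621_at lies at 1.62 and 0.78, its other probe sets at 0.70 and 0.46 and at 0.60 and 0.45, and WASL 205809_s_at lies lowest at -0.38 and -0.56.

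Among the actin and filament proteins, 16 of 25 probe sets were positive in E2-BSA against control, with a median of 0.042 and a range of -0.16 to 0.26, and 0 passed the test or reached an unadjusted p under 0.05 in limma. ACTB, cytoplasmic beta-actin, was the steadiest gene of the list by its 3 tested probe sets. Its probe set 213867_x_at read -0.48 on control 1, -0.40 on E2-BSA 1 and -0.43 on estradiol in the smaller set. In the larger set it read 0.12 on control 2, 0.037 on E2-BSA 2, -0.013 on ethanol, 0.013 on BSA, 0.12 on ICI, 0.055 on G15, 0.055 on E2-BSA with ICI and 0.081 on E2-BSA with G15. The values split by array set and not by treatment, and within a set they lay close together. E2-BSA differed from control by 0.0020 ± 0.12 (limma adjusted p = 0.9996), with -0.030 after quantile normalization, so the sign is not settled. Over the 8 arrays of the larger set the median SD of the 3 ACTB probe sets was 0.037, the lowest of the 36 genes, whose probe sets had a median SD of 0.112. All 3 carry the suffix x, which marks probes that may bind other transcripts. The untested ACTB control probe set at the 5′ end varied more in that set, from -0.29 on control 2 to 0.0063 on ethanol.

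The tropomyosins, which wrap along the filament and govern the access of other proteins to it, showed the widest differences in this role, although none passed the test. TPM1 238688_at read 0.61 on control 1, 0.39 on E2-BSA 1 and 0.40 on estradiol. Its values in the larger set were -0.0080 on control 2, -0.12 on E2-BSA 2, -0.56 on ethanol, -0.79 on BSA, -0.47 on ICI, -0.065 on G15, 0.0080 on E2-BSA with ICI and -0.28 on E2-BSA with G15. The BSA array was the lowest of the larger set, with ethanol and ICI next. Against control the differences were -0.81 ± 0.16 for BSA (limma adjusted p = 0.144), -0.58 for ethanol (adjusted p = 0.28) and -0.49 for ICI (adjusted p = 0.612), and the other 5 TPM1 probe sets lay between -0.19 and 0.29 in these comparisons.

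TPM4 209344_at was high on the estradiol array alone. It read 0.91 there, against 0.20 on control 1 and 0.19 on E2-BSA 1, and between -0.54 and 0.015 on the arrays of the larger set. Estradiol differed from control by 0.69 ± 0.16 (limma adjusted p = 0.184) and from E2-BSA by 0.73 ± 0.16 (adjusted p = 0.32), and neither passed. The other 4 TPM4 probe sets lay between -0.27 and 0.21 in estradiol against control. The actin cross-linker gene ACTN1 had its highest value for 237401_at on the ICI array, at 0.54 ± 0.16 above control (limma adjusted p = 0.569). The other ACTN1 probe sets lay between -0.060 and 0.067 in ICI against control. The widest differences from control were -0.16 for MYH9, the heavy chain of nonmuscle myosin II, -0.097 for ACTN4, another alpha-actinin, 0.29 for MYL9, a myosin light chain, and 0.33 for ACTA2, smooth muscle actin.

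Promoter sequences came from RefSeq (GRCh38.p14), with 250 bases before and 50 after the start of each gene, and 32 of the 37 genes matched. The CArG box, by name the site bound by serum response factor, which drives many cytoskeletal genes, was found in 3 of the 32 (9.38%), against 1.29% of 35116 promoters of the same length. The sites of FLNA (chrX:154374709-154374738, minus strand), TPM4 (chr19:16067355-16067384, plus strand) and ROCK2 (chr2:11345491-11345520, minus strand) are shown in 30-base windows because they are the classical actin-linked element in this list, with the box in capitals.
FLNA: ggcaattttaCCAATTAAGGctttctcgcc
TPM4: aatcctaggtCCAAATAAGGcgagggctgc
ROCK2: aaatgtacttCCTTAAATGGgtttactggg
Of these genes, TPM4 was called in no comparison, ROCK2, a kinase that promotes contraction, differed from control by -0.17 at its widest, and FLNA was not measured.

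Among the genes of filament assembly and turnover, 19 of 32 probe sets were positive in E2-BSA against control, with a median of 0.0099, 1 called and 4 at an unadjusted p under 0.05, of which 3 were those of FMN1. FMN1 238621_at read 0.025 on control 1, 1.64 on E2-BSA 1 and 1.58 on estradiol. In the larger set it read -0.81 on control 2, -0.025 on E2-BSA 2, -0.76 on ethanol, -0.56 on BSA, -0.79 on ICI, -0.65 on G15, 0.22 on E2-BSA with ICI and -0.21 on E2-BSA with G15. In the smaller set both hormone arrays stood far above control, and in the larger set the arrays that received E2-BSA were the highest, with no overlap with those that did not. The difference between E2-BSA and control was 1.62 in the smaller set and 0.78 in the larger. Leaving out control 1 or E2-BSA 1 gives 0.78, and leaving out control 2 or E2-BSA 2 gives 1.62, in place of 1.20.

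The other FMN1 probe sets ran the same way with smaller differences. FMN1 1563559_at read -0.11 on control 1, 0.59 on E2-BSA 1 and 0.25 on estradiol, and in the larger set 0.41 on E2-BSA 2, 0.16 on E2-BSA with ICI and 0.20 on E2-BSA with G15, against -0.053 on control 2, -0.15 on ethanol, -0.027 on BSA, -0.068 on ICI and -0.010 on G15. FMN1 1570156_s_at read -0.56 on control 1, 0.036 on E2-BSA 1 and 0.065 on estradiol, and in the larger set 0.46, 0.29 and 0.29 on the arrays with E2-BSA, in the same order, against 0.0059 on control 2, -0.54 on ethanol, -0.18 on BSA, -0.039 on ICI and -0.036 on G15. With the estradiol array set aside, the arrays with E2-BSA lay above those without it in each array set for both probe sets, while estradiol lay below E2-BSA 1 in the first and just above it in the second. E2-BSA against control was at 0.58 ± 0.12 (limma adjusted p = 0.0612) for the first and 0.52 ± 0.12 (adjusted p = 0.0884) for the second, and neither passed. Again with the estradiol array set aside, arrays with E2-BSA lay above all those without it, in both array sets, in 5 of the 114 probe sets (2.08% of all probe sets), the 3 of FMN1 with TPM1 210986_s_at and EZR 217230_at. They lay below in 2 (1.98% of all), ENAH 222433_at and WASL 224813_at. Apart from FMN1 these differences in E2-BSA against control were at most 0.16 in size.

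**Figure D2:**
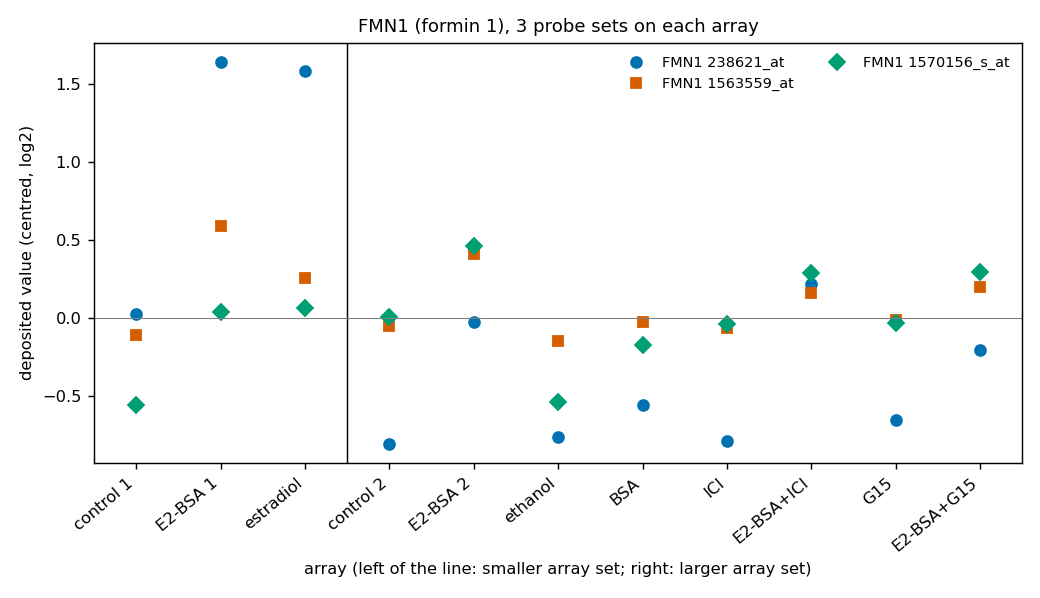
Deposited centred log2 values of the 3 FMN1 probe sets on each of the 11 arrays, with the smaller array set left of the vertical line and the larger set right of it. Leaving the estradiol array aside, in each set the arrays with E2-BSA lie above those without it, and for 238621_at E2-BSA 1 and estradiol stand at 1.64 and 1.58 against 0.025 on control 1.

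Estradiol, at the same dose and time as E2-BSA, raised FMN1 238621_at by 1.35 ± 0.22 (limma adjusted p = 0.0351), a 2.55-fold change, and by 1.56 directly against control 1. Without control 1 the value is 0.72, because estradiol then has no control in its own set. The call was lost without the array set as a term (1.97, adjusted p = 0.9999) and after quantile normalization (0.84, adjusted p = 0.9999). It was the 1 of 114 probe sets called, beside 0.167% of all probe sets, and 8 of 114 fell below an unadjusted p of 0.05 (9.2% of all). FMN1 1570156_s_at was at 0.59 ± 0.16 (adjusted p = 0.286) and 1563559_at at 0.30 ± 0.16 (adjusted p = 0.613). Estradiol minus E2-BSA was 0.15 for 238621_at, with a 95% confidence interval of -0.33 to 0.63, so a difference between free and coupled hormone as large as 0.63 or as low as -0.33 cannot be told from none.

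A further fit took the effect of E2-BSA over 3 backgrounds (alone, with ICI, with G15), from 4 arrays that received it and 4 that did not. FMN1 238621_at was at 0.96 ± 0.16 (limma adjusted p = 0.1), 1570156_s_at at 0.43 ± 0.076 (adjusted p = 0.11) and 1563559_at at 0.40 ± 0.096 (adjusted p = 0.251). None of the 114 passed, beside 0.244% of all probe sets, and 8 were at an unadjusted p under 0.05 in limma (8.45% of all). With ICI present, E2-BSA with ICI minus ICI was 1.01 ± 0.24 for 238621_at (adjusted p = 0.276), and with G15 present the corresponding difference was 0.45 ± 0.24 (adjusted p = 0.75). The response with G15 minus that without was -0.75 ± 0.29, at an unadjusted p of 0.0233 and a limma adjusted p of 0.512, and for ICI it was -0.19, with an interval of -0.82 to 0.44. Neither difference between responses passed the test. Both set antagonist arrays, all of the larger set, against the mean response over both sets. Within the larger set alone E2-BSA minus control was 0.78, above the 0.45 with G15 and below the 1.01 with ICI. For ICI the sign was thus the opposite there. The call in E2-BSA against control did not hold without the array set as a term (limma adjusted p = 0.99997) or after quantile normalization (0.99 ± 0.12, adjusted p = 0.47).

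The FMN1 promoter (chr15:33194665-33194964, minus strand, RefSeq GRCh38.p14) is printed because this gene carried the response, with the searched motifs found in it in capitals, which are GC boxes at -174 and -34 from the start.
FMN1: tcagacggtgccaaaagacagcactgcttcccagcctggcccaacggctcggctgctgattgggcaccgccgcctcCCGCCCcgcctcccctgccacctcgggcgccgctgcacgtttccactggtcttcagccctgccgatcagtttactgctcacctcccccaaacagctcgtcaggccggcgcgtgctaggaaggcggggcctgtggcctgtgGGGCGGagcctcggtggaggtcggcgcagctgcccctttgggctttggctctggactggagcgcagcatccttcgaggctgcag
On both strands, the full estrogen response element, searched by its consensus palindrome, was found in 0 of 32 promoters of the list (0.057% of all promoters). Its single arm GGTCA, which is contained in the full element, was found in 4 of 32, those of CDC42, ROCK2, ITGAV and MSN (12.5%, against 37.4% of all), and the GC box GGGCGG in 30 (93.8%, against 45% of all). A match is a description of these letters and not a binding site.

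WASL, which encodes N-WASP, an activator of the Arp2/3 complex, gave the lowest value of the list in E2-BSA against control, in 1 of its 4 probe sets. WASL 205809_s_at read 0.44 on control 1, 0.052 on E2-BSA 1 and 0.19 on estradiol. Larger-set values were 0.10 on control 2, -0.46 on E2-BSA 2, -0.052 on ethanol, -0.71 on BSA, -0.28 on ICI, -0.66 on G15, -0.52 on E2-BSA with ICI and -0.21 on E2-BSA with G15. Control was the highest array in each set. E2-BSA differed from control by -0.47 ± 0.12 (limma adjusted p = 0.138, -0.38 and -0.56 within the sets), BSA by -0.77 (adjusted p = 0.185) and G15 by -0.72 (adjusted p = 0.486). The carrier alone was thus also below control, and E2-BSA was at 0.30 ± 0.16 against it (adjusted p = 0.842). The other WASL probe sets did not all run this way. In E2-BSA against control 230340_s_at was at -0.25, 224813_at at -0.13 and 205810_s_at at 0.082, and 205810_s_at was also above control on G15, at 0.11.

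VASP, which protects growing filament ends from capping, had 1 probe set, 202205_at, at -0.26 ± 0.12 in E2-BSA against control (limma adjusted p = 0.516) and -0.23 over the 3 backgrounds (adjusted p = 0.352). It read -0.30 on control 1, -0.51 on E2-BSA 1 and -0.30 on estradiol, and 0.33 on control 2 against 0.032 on E2-BSA 2. DIAPH3, another formin, was high on the estradiol array. DIAPH3 220997_s_at read 0.94 there, against 0.47 on control 1 and 0.065 on E2-BSA 1, and estradiol minus E2-BSA was 0.73 ± 0.19 (limma adjusted p = 0.343). The Arp2/3 subunit genes ARPC2 and ARPC5, the profilin gene PFN1, whose product feeds monomers to formins, and ENAH, a relative of VASP, had widest differences from control of 0.16, 0.21, -0.11 and -0.26. CFL1, cofilin, and DIAPH1, another formin, reached 0.40 and -0.45 with ICI, and neither passed the test.

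RHOA, which drives contraction and stress fibres, had 240337_at at 0.49 on control 1, 0.47 on E2-BSA 1 and 0.10 on estradiol. The estradiol array was the low one of that set, and estradiol minus E2-BSA was -0.42 ± 0.16 (limma adjusted p = 0.505). Against control, the RHOA probe sets differed in sign with estradiol, at -0.33 for 240337_at (adjusted p = 0.568), 0.33 for 1555814_a_at (adjusted p = 0.58) and 0.16 for 200059_s_at. In the larger set RHOA 240337_at lay near 0 on ethanol, BSA, ICI and both E2-BSA arrays without G15, and was low on G15, at -0.41, and on E2-BSA with G15, at -0.39. Control 2 was at -0.21, so G15 minus control within the larger set was -0.20. The fit gave -0.25 ± 0.16 (limma adjusted p = 0.9998).

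CDC42, which governs filopodia and cell polarity, had its widest differences from control at -0.53 ± 0.18 for 214230_at with ICI (limma adjusted p = 0.658) and -0.38 ± 0.17 for 210232_at with estradiol (adjusted p = 0.539). Against BSA, E2-BSA was at -0.42 ± 0.16 for CDC42 226400_at (adjusted p = 0.663), a sign that turned without the array set as a term (0.25). ROCK1, a kinase that acts on myosin light chains and LIM kinases, had 230239_at at 0.45 on ICI and -0.12 on E2-BSA with ICI, a difference of -0.57 ± 0.19 (limma adjusted p = 0.487). RAC1, which drives lamellipodia, and the cofilin kinases LIMK1 and LIMK2 had widest differences from control of 0.24, 0.31 and -0.20.

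Among focal adhesion and integrin genes, 14 of 23 probe sets were positive in E2-BSA against control, with a median of 0.020, 3 at an unadjusted p under 0.05 and 0 called in limma. VCL, vinculin, which reinforces the link between talin and actin, gave the highest value, in 1 of its 2 probe sets. The other, 200931_s_at, was at -0.12 in ICI against control and -0.021 in E2-BSA against BSA. VCL 200930_s_at read -0.12 on control 1, 0.21 on E2-BSA 1 and -0.013 on estradiol. The larger set gave -0.19 on control 2, 0.26 on E2-BSA 2, -0.057 on ethanol, 0.11 on BSA, 0.33 on ICI, -0.040 on G15, 0.32 on E2-BSA with ICI and 0.075 on E2-BSA with G15. E2-BSA lay above control in both sets, but ICI alone lay as high as E2-BSA in the larger set. The differences from control were 0.39 ± 0.12 for E2-BSA (limma adjusted p = 0.252; 0.32 and 0.45 within the sets) and 0.48 ± 0.16 for ICI (adjusted p = 0.626).

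None of the probe sets of the integrin genes ITGA6, a laminin receptor chain, and ITGB1, the beta chain shared by many integrins, passed the test. ITGA6 215177_s_at was at 0.28 ± 0.12 in E2-BSA against control (limma adjusted p = 0.454) and 0.27 ± 0.070 over the 3 backgrounds (adjusted p = 0.29). ITGB1 1553530_a_at was at 0.29 ± 0.12 in E2-BSA against control (limma adjusted p = 0.438), 0.44 in estradiol, 0.39 in BSA, 0.55 in ethanol (adjusted p = 0.319) and 0.37 in G15. Control was the lowest array of each set for this probe set, with control 2 at -0.57. Over the 7 ITGB1 probe sets, E2-BSA against control ran from -0.099 to 0.29, with 4 positive and a median of 0.030. Talin, TLN1, the protein that activates integrins, had 232763_at at 0.55 ± 0.16 in estradiol against control (adjusted p = 0.318). ITGAV, an integrin alpha chain, differed from control by -0.13 at its widest. The adaptor genes PXN, paxillin, and ZYX, zyxin, and the kinase gene PTK2, focal adhesion kinase, reached -0.33, -0.28 and 0.28 at their widest against control, with PXN 211823_s_at at -0.12 ± 0.12 in E2-BSA (adjusted p = 0.844).

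At the cell cortex, EZR, ezrin, was lower on the BSA array. BSA differed from control by -1.18 ± 0.16 in probe set 208621_s_at (limma adjusted p = 0.025), 0.441 times the control value. E2-BSA was higher than BSA by 0.94 ± 0.16 (adjusted p = 0.0473). Both calls rest on the same single BSA array, and E2-BSA itself differed from control by -0.24 ± 0.12 (adjusted p = 0.578). EZR 208621_s_at read 0.42 on control 1, 0.28 on E2-BSA 1 and 0.48 on estradiol. On the larger set it read 0.13 on control 2, -0.21 on E2-BSA 2, -0.13 on ethanol, -1.10 on BSA, -0.40 on ICI, -0.83 on G15, -0.29 on E2-BSA with ICI and -0.46 on E2-BSA with G15. BSA was the lowest, G15 the next, and control 2 the highest of the larger set.

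The 5 EZR probe sets did not move together. EZR 217234_s_at read -0.85 on BSA, -0.56 on G15 and -0.46 on ICI against 0.012 on control 2, and BSA against control was -0.92 ± 0.16 (limma adjusted p = 0.0943). For 208622_s_at, 208623_s_at and 217230_at the same difference was 0.057, -0.058 and -0.099. EZR 217230_at was instead lowest on ethanol, at -0.60. The low BSA value was thus seen in 2 of 5 probe sets. Both calls were lost without the array set as a term (adjusted p = 0.999999 and 0.9998) and after quantile normalization (-1.26, adjusted p = 0.226, for BSA against control, and 0.996, adjusted p = 0.204, for E2-BSA against BSA).

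**Figure D3:**
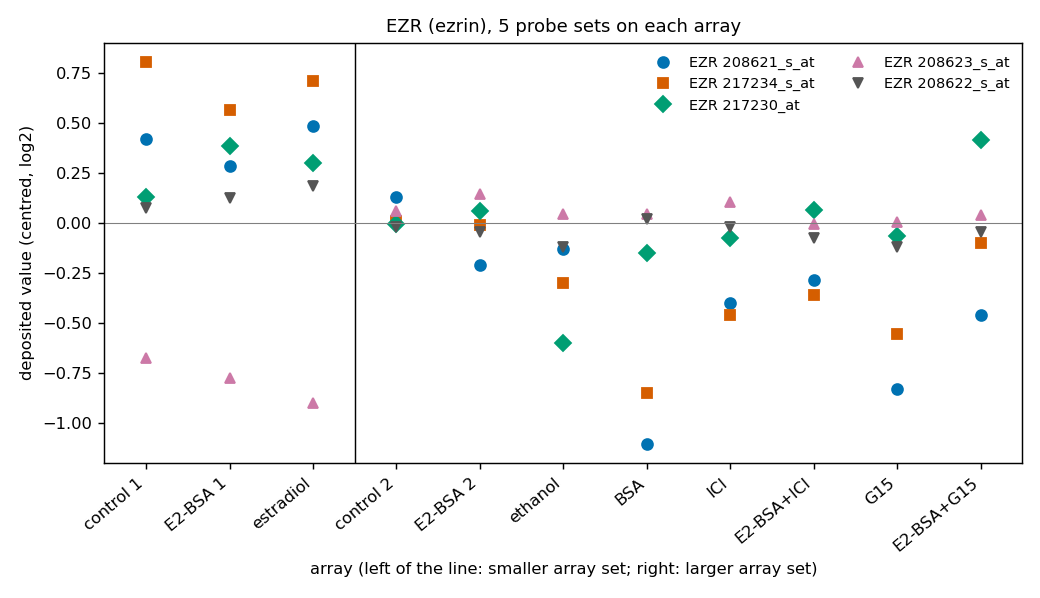
Deposited centred log2 values of the 5 EZR probe sets on each of the 11 arrays, with the smaller array set left of the vertical line and the larger set right of it. Probe sets 208621_s_at and 217234_s_at drop to -1.10 and -0.85 on the BSA array, where 208622_s_at and 208623_s_at stay at 0.019 and 0.046.

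The same arrays were also low for some unrelated transcripts. The 2 named here are examples from a list of low transcripts and do not stand for the array as a whole. The histone chaperone gene NASP (242918_at) read -1.87 on BSA, -1.06 on G15 and -1.02 on ICI against -0.0080 on control 2, and the nuclear noncoding RNA MALAT1 (224568_x_at) read -1.40, -1.10 and -0.92 against 0.069. Their part in the EZR, TPM1 and WASL values was not tested. In BSA against control 1 of 114 probe sets was called, and it was lower (0.0494% of all probe sets), and 8 fell below an unadjusted p of 0.05 (4.95% of all). In E2-BSA against BSA 1 of 114 was called, and it was higher (0.152% of all), with 10 at an unadjusted p under 0.05 (6.47% of all). FMN1 238621_at was at 0.74 ± 0.22 in the latter (adjusted p = 0.424), 1570156_s_at at 0.67 ± 0.16 and 1563559_at at 0.49 ± 0.16, and none passed.

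The EZR promoter (chr6:158818186-158818485, minus strand, RefSeq GRCh38.p14) is printed as that of the other called gene. Capitals mark GC boxes and an AP-1 site, TGANTCA, at -56 from the start.
EZR: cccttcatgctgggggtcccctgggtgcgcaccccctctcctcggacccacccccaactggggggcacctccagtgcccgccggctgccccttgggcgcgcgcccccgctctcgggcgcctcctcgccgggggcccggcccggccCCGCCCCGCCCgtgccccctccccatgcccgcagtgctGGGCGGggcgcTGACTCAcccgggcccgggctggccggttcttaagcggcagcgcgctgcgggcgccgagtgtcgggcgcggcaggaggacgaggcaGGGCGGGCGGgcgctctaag
An AP-1 site was found in 3 of 32 promoters of the list, those of ACTN4, ARPC5 and EZR (9.38%, against 7.71% of all promoters).

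CDH1, E-cadherin, and MSN, moesin, were not called in any comparison. CDH1 201130_s_at read 0.071 on control 1, 0.61 on E2-BSA 1 and 0.96 on estradiol. Values on the larger set were -0.18 on control 2, -0.019 on E2-BSA 2, -0.28 on ethanol, -0.24 on BSA, -0.032 on ICI, -0.10 on G15, -0.19 on E2-BSA with ICI and 0.019 on E2-BSA with G15. Both hormone arrays stood above control 1, while the larger set showed a difference of 0.16. Estradiol against control was 0.79 ± 0.17 (limma adjusted p = 0.151) and E2-BSA 0.35 ± 0.13 (adjusted p = 0.37), and the second CDH1 probe set, 201131_s_at, was at -0.036 and 0.019. MSN 233749_at was at -0.11 ± 0.13 in E2-BSA (adjusted p = 0.887) and -0.38 ± 0.17 in BSA against control (adjusted p = 0.9999).

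In the remaining comparisons none of the 114 probe sets passed in limma. For estradiol against E2-BSA 6 were at an unadjusted p under 0.05, with 0% of all probe sets passing and 8.5% at that p. For ethanol against control there were 8 (0.287% of all passing, 7.16% at that p), with TPM4 235922_at at 0.53 and EZR 217230_at at -0.54. For ICI against control there were 10 (0% and 5.95%), and for G15 against control 5 (0% and 4.84%). E2-BSA with ICI against ICI had 5 (0% and 7.14%), and E2-BSA with G15 against G15 had 7 (0.112% and 7.43%), with ITGB1 216178_x_at at 0.52 and EZR 217230_at at 0.48. The E2-BSA response with ICI minus without had 4 (0.011% and 7.58%), and that with G15 minus without had 6 (0% and 8.01%), with WASL 205809_s_at highest at 0.92 ± 0.21 (adjusted p = 0.227) and FMN1 238621_at lowest. The comparisons share control or E2-BSA arrays, so their values are not independent of each other.

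Over the 6 comparisons against control, 11 of the 36 genes reached a difference of 0.5 or more in at least 1 probe set, and 25 did not. In a single one of these comparisons, 1.18% (G15) to 2.67% (estradiol) of all probe sets reached it. Each gene had several chances to do so, and the share over all genes was not computed, so the count is a description only. In all 13 comparisons 2 genes, FMN1 and EZR, were called, each in 1 probe set, and 34 were not. The shares of all probe sets called are given with each comparison above.

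Other genes of the same processes were followed in 5 lists. In E2-BSA against control 0 of 39 measured genes of assembly, capping and severing, 0 of 37 integrin and focal adhesion genes and 0 of 26 junction and cortex genes passed in limma, with 3, 18 and 7 probe sets at an unadjusted p under 0.05 of 110, 131 and 72, beside 9.68% of all probe sets at that p and 0.657% called. Among 25 actin isoforms, myosins and filament binders 1 rose, MYO5A, a motor that carries cargo along actin. Among 16 genes of serum response factor and its actin-linked targets 1 rose, FHL2, a LIM-domain protein found at adhesions and in the nucleus. Medians of the 5 lists lay between 0.0032 and 0.064, beside 0.0029 for all probe sets.

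FHL2 202949_s_at read -0.47 on control 1, 0.54 on E2-BSA 1 and 0.49 on estradiol, and in the larger set 0.012 on control 2, 0.67 on E2-BSA 2, 0.056 on ethanol, -0.013 on BSA, -0.012 on ICI, -0.099 on G15, 0.32 on E2-BSA with ICI and 0.50 on E2-BSA with G15. Every array with the hormone lay above every array of its set without it. E2-BSA against control was 0.83 ± 0.13 (limma adjusted p = 0.0113), and estradiol was 0.87 ± 0.17 (adjusted p = 0.0965). MYO5A rose in 1 of its 4 probe sets, 241966_at, by 0.69 ± 0.13 (adjusted p = 0.0416), and the others lay between -0.16 and 0.029. MYO5A 241966_at read 0.90 on E2-BSA 1 and 0.018 on E2-BSA 2, against -0.010 on control 1 and -0.44 on control 2. With the antagonists present it was not higher. E2-BSA with ICI read -0.18 against 0.010 on ICI, and E2-BSA with G15 read -0.35 against -0.13 on G15. In ethanol against control the immediate early genes JUNB and EGR1 (201694_s_at) rose by 1.01 ± 0.16 (adjusted p = 0.0175) and 1.70 ± 0.30 (adjusted p = 0.0341). Estradiol and BSA against control called 0 genes of these lists in limma, with 37 and 26 of their 440 probe sets below an unadjusted p of 0.05, beside 9.2% and 4.95% of all probe sets at that p and 0.167% and 0.0494% called.

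The largest differences in the list lay between the array sets and not between treatments. Because the sets were split by the values of all probe sets, large differences between them were partly fixed in advance, and none was tested. The median absolute difference between the sets was 0.366 over the 114 probe sets, against 0.222 over all. In both the control pair and the E2-BSA pair, 8 of the 114 were higher by 1 or more in the smaller set (7.02%, against 2.21% of all) and 2 were lower (1.75%, against 2.06% of all). ITGB1 1553530_a_at read 2.75, 2.99 and 3.16 on the arrays of the smaller set and from -0.57 to 0.0029 on those of the larger. The 7 ITGB1 probe sets differed between the sets by 3.27 at most and 0.033 at least.

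Probe sets of the same gene could run opposite ways across this split. RAC1 ranged from -0.45 to 1.56, PTK2 from -1.45 to 0.93, PXN from -0.91 to 0.49 and TLN1 from -0.84 to 0.83, while ACTN1 ranged from -1.53 to 0.0032, with 1 probe set near 0 and the others lower in the smaller set. The ROCK1 probe set 214578_s_at was 1.89 higher and ITGA6 215177_s_at 1.53 higher in the smaller set. Of the 3 ACTB control probe sets, the one at the 3′ end read -0.63 on control 1, -0.44 on E2-BSA 1 and -0.47 on estradiol against values from -0.0059 to 0.085 on the larger set. The one at the 5′ end read 0.023, 0.34 and 0.30 against values from -0.29 to 0.0063, with control 1 close to the highest of these. The one in the middle read -0.23, 0.045 and 0.087 against values from -0.12 to 0.036, so it did not follow the split. What set the array sets apart was not tested, and the labels name no batch.

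**Figure D4:**
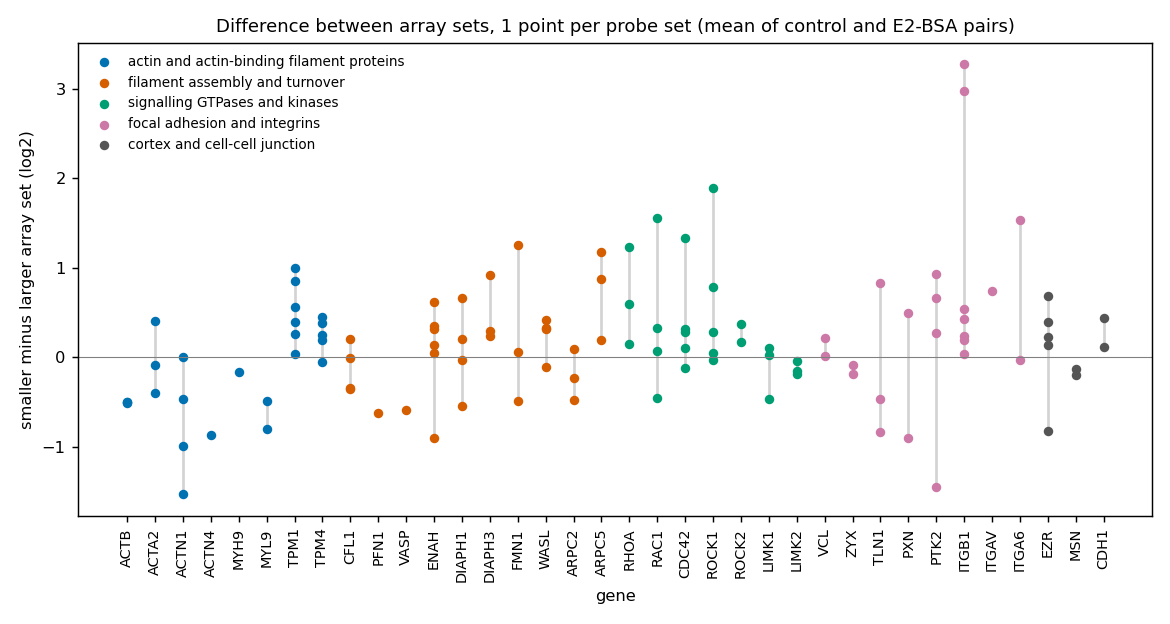
Log2 difference between the smaller and the larger array set for each tested probe set (mean of control 1 minus control 2 and E2-BSA 1 minus E2-BSA 2), with genes along the horizontal axis coloured by role and grey lines joining the probe sets of a gene. ITGB1 spans 0.033 to 3.27 and PTK2 -1.45 to 0.93, while the 3 ACTB probe sets lie together between -0.52 and -0.50.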

How the data were processed

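Total RNA from T47D cells was hybridised to 11 Affymetrix HG-U133 Plus 2 arrays, per the labels' protocols. The authors deposited a table of 54675 probe sets whose values, taken here as log2 judging by how large they are, were already on a common scale between arrays and centred per probe set, with array medians between -0.011 and 0.0073. The summarisation, normalization and log base are not given in the sources used here. Centring removed levels, so no filter on dim probe sets was possible. After removing 62 control probe sets, 54613 were tested in limma 3.58.1 (R 4.3.3) by lmFit and eBayes, with group means and the array set as terms (1 residual and 11.3 prior degrees of freedom), and calls at an adjusted p under 0.05. E2-BSA over 3 backgrounds used 8 arrays (3 residual degrees of freedom). A replicate number of control and E2-BSA matches the array set, so the array set is also the replicate block. Deviations of same-numbered arrays from their group means correlated at 0.857. Because the sets were split by the same values, a high correlation was largely fixed in advance and cannot show that replicates were paired. Genes were named from the platform annotation, with symbols updated through RefSeq, and probe sets with several symbols were not used. Of the 114, 12 carry the suffix x, which marks probes that may bind other transcripts. The members, gene lists and tests were chosen with earlier results of these data known. Probe sets picked for naming were those called, the highest and lowest in each comparison, and those of ACTB, CDH1, MSN, EZR, PXN, VCL and RHOA. Not all are printed above, and values on every array were given for the called ones of the list and for some others. Alternatives were no block, quantile normalization, median centring, robust eBayes, probe sets with 1 symbol, compared groups alone and leaving out arrays. The code was tested on simulated data. One further gene list is not reported here.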

Additional observations from a re-analysis of the deposited data

How the results depend on the processing

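Without the replicate block, that is without the array set as a term, the counts of called probe sets fell from 1 to 0 in E2-BSA against control, estradiol against control, E2-BSA against BSA and BSA against control, and quantile normalization also gave 0 in each. Centring arrays on their median gave 2 in E2-BSA against control, adding FMN1 1563559_at (limma adjusted p = 0.0481). The other counts stayed at their value under the alternatives run, which left 65 of 74 unchanged. Among the named values 7 of 626 changed sign. Without the block these were CDC42 226400_at in E2-BSA against BSA (0.25), FMN1 238621_at in BSA (-0.17) and G15 (-0.26) against control, ITGB1 1553678_a_at in BSA (-1.07), and ITGB1 1553530_a_at in ethanol (-1.08) and G15 (-1.27), and after quantile normalization ACTB 213867_x_at in E2-BSA against control (-0.030). Leaving out single control or E2-BSA arrays left no residual degrees of freedom outside the 3 backgrounds, so those settings give values with no test. FMN1 238621_at ranged from 0.78 to 1.62 for E2-BSA and from 0.72 to 1.56 for estradiol, and EZR 208621_s_at from -1.23 to -1.03 for BSA against control and from 0.89 to 1.09 for E2-BSA against BSA. Over the 3 backgrounds the count stayed at 0. The array set as a random block could be fitted there only (0 called), and was not run elsewhere.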
